A study of Mus musculus with 10 samples.

Results

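The genes described here are those of hepatic fatty acid oxidation and ketone body formation. They were a named set of 37 genes, looked up by symbol in the platform annotation of the arrays, and of 37 genes 35 were measured by a probe set with a single gene symbol, out of 19935 genes measured in all. Acsl1 and Ucp2 were not analysed here. The livers came from 12-week-old mice, 5 of them wild type (WT) and 5 lacking nucleomethylin (NML-KO), the nucleolar protein encoded by Rrp8. Total RNA of each liver was hybridised to 1 whole-transcript array, and the labels gave no sex, strain, time of day or feeding state, no treatment, and nothing on how the knockout allele was made. Each value below is a log2 intensity, and a difference between groups is a difference of mean log2 intensities. Values of different genes come from different probes and were not set against each other.

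Hepatocytes break down fatty acids in mitochondria and in peroxisomes. Long-chain fatty acids are activated to acyl-CoA, carried into mitochondria by the carnitine shuttle, with Cpt1a as the regulated entry step, and shortened by a repeating cycle of dehydrogenation, hydration, a second dehydrogenation and thiolytic cleavage. The acetyl-CoA formed can be turned into ketone bodies, and peroxisomes take substrates that mitochondria handle poorly. PPARA, a nuclear receptor that senses fatty acids, binds with RXR to direct repeats of the motif AGGTCA spaced by 1 base (DR1) and drives many of these genes during fasting.

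The livers also fell into 2 sets by Dbp, the clock output factor whose transcript swings widely over the day. Livers with log2 Dbp above 8 (Dbp-high) were WT 1, WT 2 and NML-KO 1 to 3, with values from 9.68 to 10.23, and the Dbp-low livers, WT 3 to 5, NML-KO 4 and NML-KO 5, had values from 6.20 to 6.60. Arntl, a clock activator, was at 5.55 to 5.90 in the Dbp-high and at 8.10 to 8.27 in the Dbp-low livers. These sets come from the values of the arrays themselves and not from a label, so differences between them are given as descriptions without a p-value. Rrp8 averaged 7.75 ± 0.11 (SD, n = 5) in WT and 6.87 ± 0.22 (SD, n = 5) in NML-KO livers, a difference of -0.88 (p = 0.0079, two-sided exact permutation test over 252 assignments; limma adjusted p = 0.109). Array median intensities lay between 62.5 and 66.7, and precision is set by having 5 arrays a group. Of 10 hepatocyte markers 8 were measured, each above the median level of all genes, with a summed intensity from 106377 to 117254 per liver. WT 2 and NML-KO 4 stood apart in several members, WT 2 with high fat tissue markers and NML-KO 4 with low values in many members. Dbp differences of members that move by over 1.5 times without either liver are in most cases also given without it.

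Promoter sequences are shown here because many of these genes are known targets of PPARA. RefSeq (GRCm38.p6) gave a window from 250 bases before to 50 bases after the start of the gene for 32 of the 37 genes. The DR1 motif, AGGTCA followed by any 1 base and AGGTCA again, was searched on both strands. With at most 1 mismatch it was present in Acot12 and Fabp1, 2 of 32 members, against 0.644% of 27025 genes with a window. With at most 2 mismatches it was present in 7 members, namely Acot12, Acot4, Cd36, Creb3l3, Etfa, Fabp1 and Slc25a20, against 4.40% of all genes. The E-box CACGTG, the motif of the clock activators, was found in Acot4 alone (8.09% of all genes), and the D-box of Dbp, searched as TTATGTAA and TTACGTAA, in none of the 32 (1.23%). A match is a description of the letters and not of binding, and enhancers outside these windows were not searched. The first 3 stretches below hold the 250 bases before the start, 5′ to 3′ on the strand of the gene, with the DR1 match in capitals. Capitals in Acot4 also mark its E-box, which is the first of its 2 capital runs. They lie at chr6:71199629-71199878 (Fabp1, plus strand), chr13:91741271-91741520 (Acot12, plus strand) and chr12:84038129-84038378 (Acot4, plus strand), and the match begins 67 bases before the start of Fabp1, 110 bases before that of Acot12 and 13 bases before that of Acot4.
Fabp1: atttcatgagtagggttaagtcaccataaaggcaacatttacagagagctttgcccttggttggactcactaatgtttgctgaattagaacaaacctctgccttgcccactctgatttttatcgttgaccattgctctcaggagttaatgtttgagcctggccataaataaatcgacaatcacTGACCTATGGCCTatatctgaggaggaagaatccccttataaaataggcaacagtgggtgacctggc
Acot12: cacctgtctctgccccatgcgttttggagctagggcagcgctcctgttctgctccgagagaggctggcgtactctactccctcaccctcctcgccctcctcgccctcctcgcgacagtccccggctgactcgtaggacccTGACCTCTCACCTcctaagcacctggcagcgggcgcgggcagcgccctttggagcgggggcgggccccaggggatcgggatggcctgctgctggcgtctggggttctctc
Acot4: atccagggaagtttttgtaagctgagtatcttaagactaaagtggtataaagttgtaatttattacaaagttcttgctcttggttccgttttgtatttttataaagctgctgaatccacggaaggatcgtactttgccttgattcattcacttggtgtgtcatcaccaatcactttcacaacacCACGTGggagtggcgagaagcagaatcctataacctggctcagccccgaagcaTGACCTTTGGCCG

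Hadha and Hadhb encode the 2 subunits of the mitochondrial trifunctional protein and start back to back on chromosome 5, Hadha on the minus strand at 30154980 and Hadhb on the plus strand at 30155253, with 272 bases between. The stretch before Hadhb, chr5:30155003-30155252 on the plus strand, is shown because both genes share it. Its capitals are the 228 bases that also lie within 250 bases before Hadha.
Hadhb: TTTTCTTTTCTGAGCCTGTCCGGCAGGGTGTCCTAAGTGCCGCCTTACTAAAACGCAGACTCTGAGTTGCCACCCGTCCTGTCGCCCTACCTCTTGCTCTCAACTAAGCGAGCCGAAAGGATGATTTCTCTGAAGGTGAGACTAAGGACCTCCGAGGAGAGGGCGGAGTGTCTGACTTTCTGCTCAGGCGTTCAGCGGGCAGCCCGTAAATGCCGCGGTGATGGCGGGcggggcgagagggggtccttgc

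No member differed between the genotypes at the threshold of the test. By limma with Benjamini-Hochberg adjustment over all genes, 0 of 35 members had an adjusted p below 0.05, as did 0 of 19935 genes (0%). At an unadjusted p below 0.05 there were 0 members, against 539 genes (2.7%). In 0 members did the 5 NML-KO livers lie all above or all below the 5 WT livers, which 81 genes did (0.406%). All adjusted p-values of the members were 0.999. The NML-KO mean was higher for 12 members and lower for 23, with a median difference of -0.03 against -0.01 over all genes. Of the 4197 genes with a mean from 8 to 14, 2424 were lower, with a median of -0.02, so the members are near genes of that level. Nor was the lean of the members stable: their median was 0.06 without NML-KO 4, 0.03 without WT 2, 0.01 without WT 1 and 0.02 with array weights. It was -0.07 without WT 3, -0.07 without NML-KO 1 and -0.09 with the Dbp set as a term. In 24 of 35 members the sign of the difference turned when 1 liver or another was left out. The 95% confidence interval of the difference lay within 1.5-fold in either direction for 26 members and within 2-fold for 34 of 35, the exception being Cd36 with an interval from -0.28 to 1.12.

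**Figure D1:**
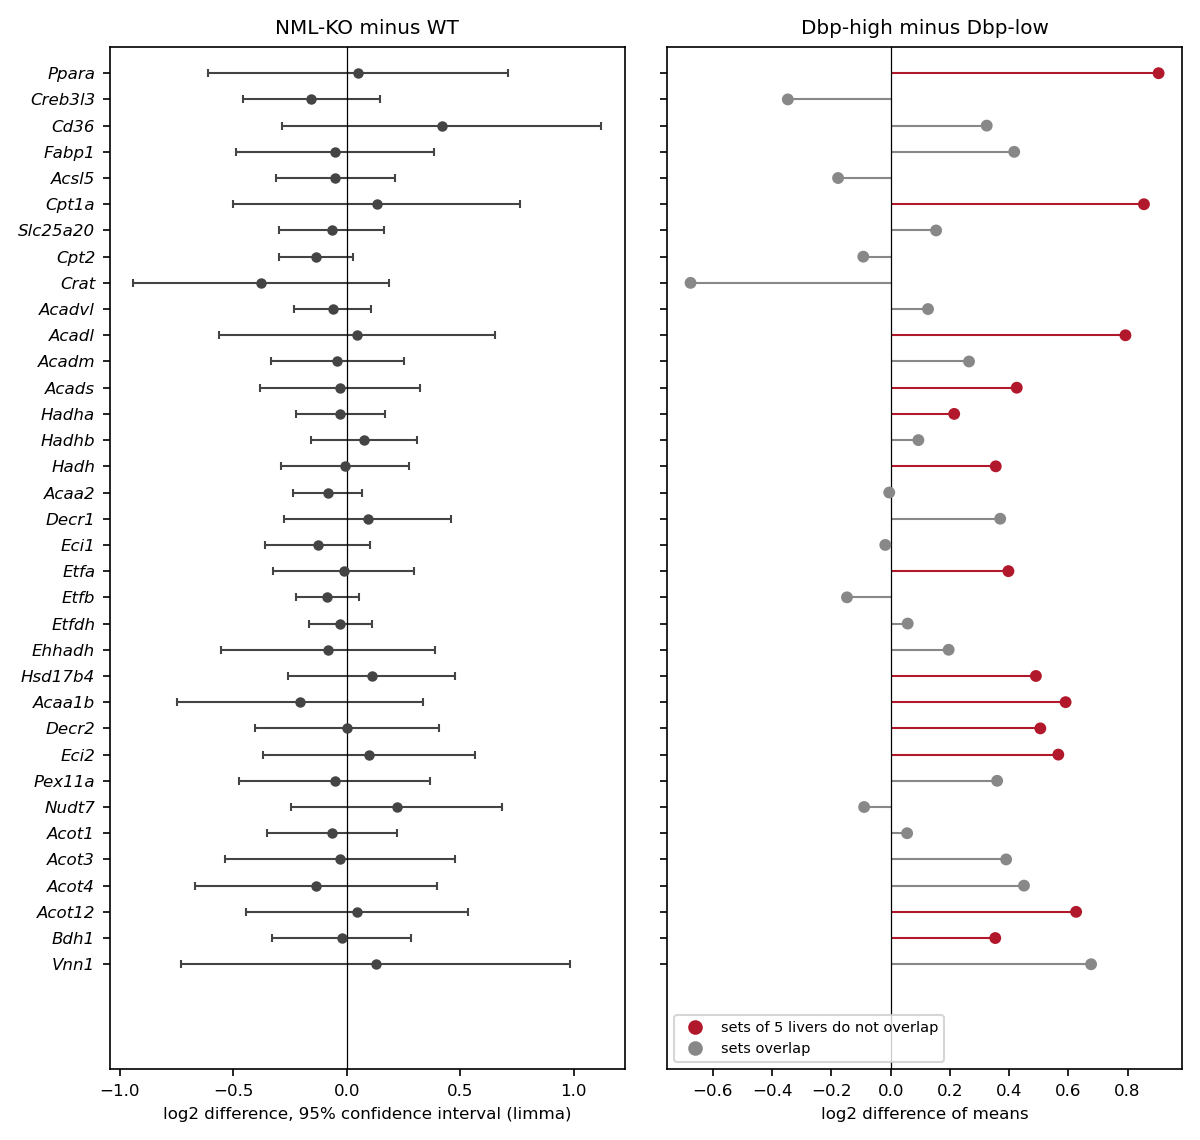
Differences of the 35 measured members, 1 row per gene in order of role: left, NML-KO minus WT in log2 with the 95% confidence interval from limma (5 against 5 livers); right, Dbp-high minus Dbp-low in log2 (5 against 5 livers, no interval). Every interval on the left includes 0, and the 13 red points on the right mark members whose 2 sets of livers did not overlap, all of them higher in the Dbp-high livers.

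Between the Dbp sets the members leaned upward in the Dbp-high livers. The mean was higher in the Dbp-high livers for 27 of the 35 and lower for 8, with a median difference of 0.35. Over all genes that median was 0.02, and over the 4197 genes with a mean from 8 to 14, the range of most members, it was -0.06. In 13 of 35 members (37.1%) all 5 Dbp-high livers lay above all 5 Dbp-low livers, a pattern seen in 1005 of 19935 genes (5.04%) and in 9.27% of the genes with a mean from 8 to 14. The opposite separation held for 0 members, against 1420 genes (7.12%), and for 4 members without NML-KO 4 (Creb3l3, Acsl5, Acaa2 and Etfb), against 8.65% of genes. After quantile normalization 31 members were higher and 4 lower, since Cpt2, Acaa2, Eci1 and Nudt7, with differences from -0.09 to -0.00, turned sign, and 15 members were separated. By role, the separated members were 1 of 2 regulators, 0 of 3 genes of uptake and activation, 1 of 4 of the carnitine shuttle, 4 of 10 of mitochondrial beta-oxidation, 1 of 3 of electron transfer, 4 of 7 of peroxisomal oxidation, 1 of 4 thioesterases and the ketone gene Bdh1.

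Cell composition was read beside these differences. Summed intensity of 10 Kupffer cell and macrophage markers was 2223 to 4273 in the Dbp-high and 3763 to 6098 in the Dbp-low livers, with 9 of 10 markers lower in the Dbp-high livers and Vsig4 separated at -1.22. Of 8 stellate cell markers 6 were lower in the Dbp-high livers, with a median difference of -0.14 and sums of 3177 to 4848 against 4323 to 5210. All 7 measured fat tissue markers averaged higher in the Dbp-high livers, with a median difference of 0.22. WT 2 was the highest liver for 5 of them, with Plin1 at 7.52 against 5.38 to 5.81 elsewhere. The differences of those 5 thus lean on that 1 liver and are not a trait of the set. Of 8 sinusoidal endothelial markers 6 were higher in the Dbp-high livers, with a median of 0.10. All 8 neutrophil markers lay below the median level of all genes in their mean. Hepatocyte marker sums overlapped, at 106377 to 115667 in the Dbp-high and 106799 to 117254 in the Dbp-low livers. Single hepatocyte markers did differ, 3 of 8 being higher and 5 lower in the Dbp-high livers. Alb (0.21) and Cps1 (0.13) were separated upward and Ttr (-0.13) downward, against 5.04% and 7.12% of all genes. Pck1 differed by 0.68 and G6pc by -0.91, both with overlap. In bulk liver RNA, fewer cells of a type and less RNA per cell cannot be told apart, and the part of these other cell types in the differences was not tested.

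**Figure D2:**
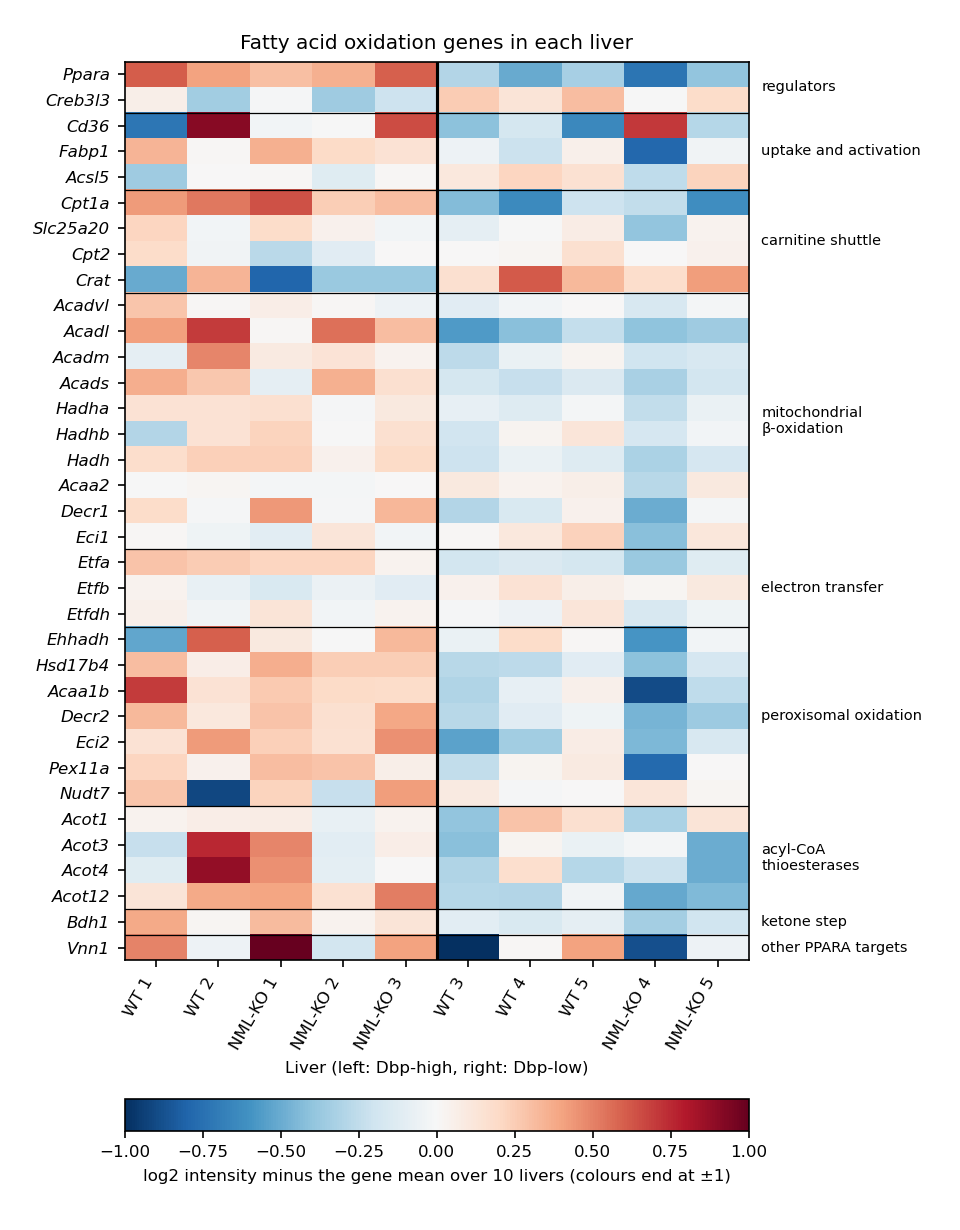
Level of each member in each liver, as log2 intensity minus the mean of the gene over the 10 livers (colours end at ±1), with Dbp-high livers left and Dbp-low livers right of the line and roles named at the right edge. Ppara and Cpt1a are red in all 5 Dbp-high and blue in all 5 Dbp-low livers, Crat runs the other way in most livers, and NML-KO 4 has the lowest value of the 10 livers in 19 of the 35 genes.

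Ppara, the receptor itself, had the largest Dbp difference of the members. Among Dbp-high livers it was at 11.13 and 10.93 in WT 1 and WT 2 and at 10.83, 10.88 and 11.12 in NML-KO 1 to 3. Dbp-low livers gave 10.23, 10.02 and 10.19 in WT 3 to 5 and 9.79 and 10.13 in NML-KO 4 and NML-KO 5. The sets stood 0.60 apart at their nearest livers, and the means were 10.98 ± 0.14 and 10.07 ± 0.18 (SD, n = 5 each), a difference of 0.90 or 1.87-fold. WT and NML-KO livers lay intermingled within each set, and the genotype difference was 0.05 (SE 0.30). Creb3l3, the liver-enriched bZIP factor that acts with PPARA in fasting, went the other way. It was at 9.73 and 9.32 in WT 1 and WT 2, at 9.66, 9.32 and 9.47 in NML-KO 1 to 3, at 9.92, 9.80 and 9.98 in WT 3 to 5 and at 9.67 and 9.86 in NML-KO 4 and NML-KO 5. The difference was -0.35, but WT 1 at 9.73 was above NML-KO 4 at 9.67, so the sets overlapped. Its genotype difference was -0.16 (SE 0.14).

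Uptake and activation showed no separated member. Cd36, a fatty acid transporter of the plasma membrane, had the largest genotype difference upward. It was at 7.53, 9.16, 7.84, 8.07 and 7.61 in WT 1 to 5 and at 8.22, 8.24, 8.90, 8.96 and 7.96 in NML-KO 1 to 5, a difference of 0.42 (SE 0.32, limma unadjusted p = 0.215, adjusted p = 0.999). The WT liver highest for Cd36, WT 2, exceeded every NML-KO liver, while the other 4 WT livers lay at or below 8.07. Without WT 2 the difference was 0.70 (unadjusted p = 0.0109 by limma, adjusted p = 0.999). WT 2 also had the highest values of 5 fat tissue markers, with Plin1 at 7.52 against 5.38 to 5.81 elsewhere and Fabp4 at 8.55 against 6.25 to 7.06. Their part in the Cd36 level of that liver was not tested. Between the Dbp sets Cd36 differed by 0.32 with overlap, by 0.14 without WT 2 and by 0.54 without NML-KO 4. Of the 8 fat tissue markers 7 were measured. Their sum, mostly Car3, was 13010 in NML-KO 4 and 17481 to 20099 in the other livers. That sum follows Car3 and does not rank the livers by the other markers. WT 2, the highest liver for 5 of the markers, had a sum of 17481. NML-KO 4, with the lowest sum, was at 7.06 for Fabp4, above every liver but WT 2.

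Fabp1, the abundant fatty acid binding protein of hepatocytes, averaged 0.42 higher in the Dbp-high livers. Its values of 13.66 and 13.33 in WT 1 and WT 2 and 13.67, 13.51 and 13.46 in NML-KO 1 to 3 overlapped with 13.26, 13.10 and 13.36 in WT 3 to 5, and NML-KO 4 was the lowest at 12.54. NML-KO 5 was at 13.28, and without NML-KO 4 the difference was 0.27. Acsl5, an acyl-CoA synthetase, had a Dbp difference of -0.18 with overlap and a genotype difference of -0.05 (SE 0.12).

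Among carnitine shuttle genes only the entry enzyme was separated upward. Cpt1a was at 12.00 and 12.10 in WT 1 and WT 2 and 12.21, 11.82 and 11.89 in NML-KO 1 to 3, and at 11.14, 10.94 and 11.37 in WT 3 to 5 and 11.33 and 10.96 in NML-KO 4 and NML-KO 5. The difference was 0.86, or 1.81-fold, and amounted to 0.90 within WT and 0.83 within NML-KO livers. The genotype difference of Cpt1a was 0.13 (SE 0.28). Slc25a20, the carrier that exchanges acylcarnitine for carnitine across the inner membrane, differed by 0.15 (0.07 without NML-KO 4) and Cpt2, which reforms acyl-CoA inside, by -0.09, both with overlap.

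Crat, the acetyltransferase of short-chain acylcarnitines, had the lowest Dbp difference of the members. It was at 8.36 and 9.20 in WT 1 and WT 2, 8.07, 8.48 and 8.49 in NML-KO 1 to 3, 9.02, 9.47 and 9.18 in WT 3 to 5 and 9.03 and 9.27 in NML-KO 4 and NML-KO 5. The difference was -0.68, and WT 2 at 9.20 was the only Dbp-high liver to reach the Dbp-low range of 9.02 to 9.47. Without WT 2 the sets did not overlap and the difference was -0.85. The genotype difference of Crat was the lowest too, at -0.38 (SE 0.25, limma unadjusted p = 0.169).

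Cpt2 had the smallest unadjusted p of the members between the genotypes. It was at 11.01, 10.79, 10.84, 10.85 and 10.99 in WT 1 to 5 and at 10.56, 10.72, 10.83, 10.83 and 10.87 in NML-KO 1 to 5, a difference of -0.13 (SE 0.07, limma unadjusted p = 0.0963, adjusted p = 0.999). NML-KO 1 at 10.56 and NML-KO 2 at 10.72 lay under every WT liver, and the other 3 NML-KO livers fell within the WT range.

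**Figure D3:**
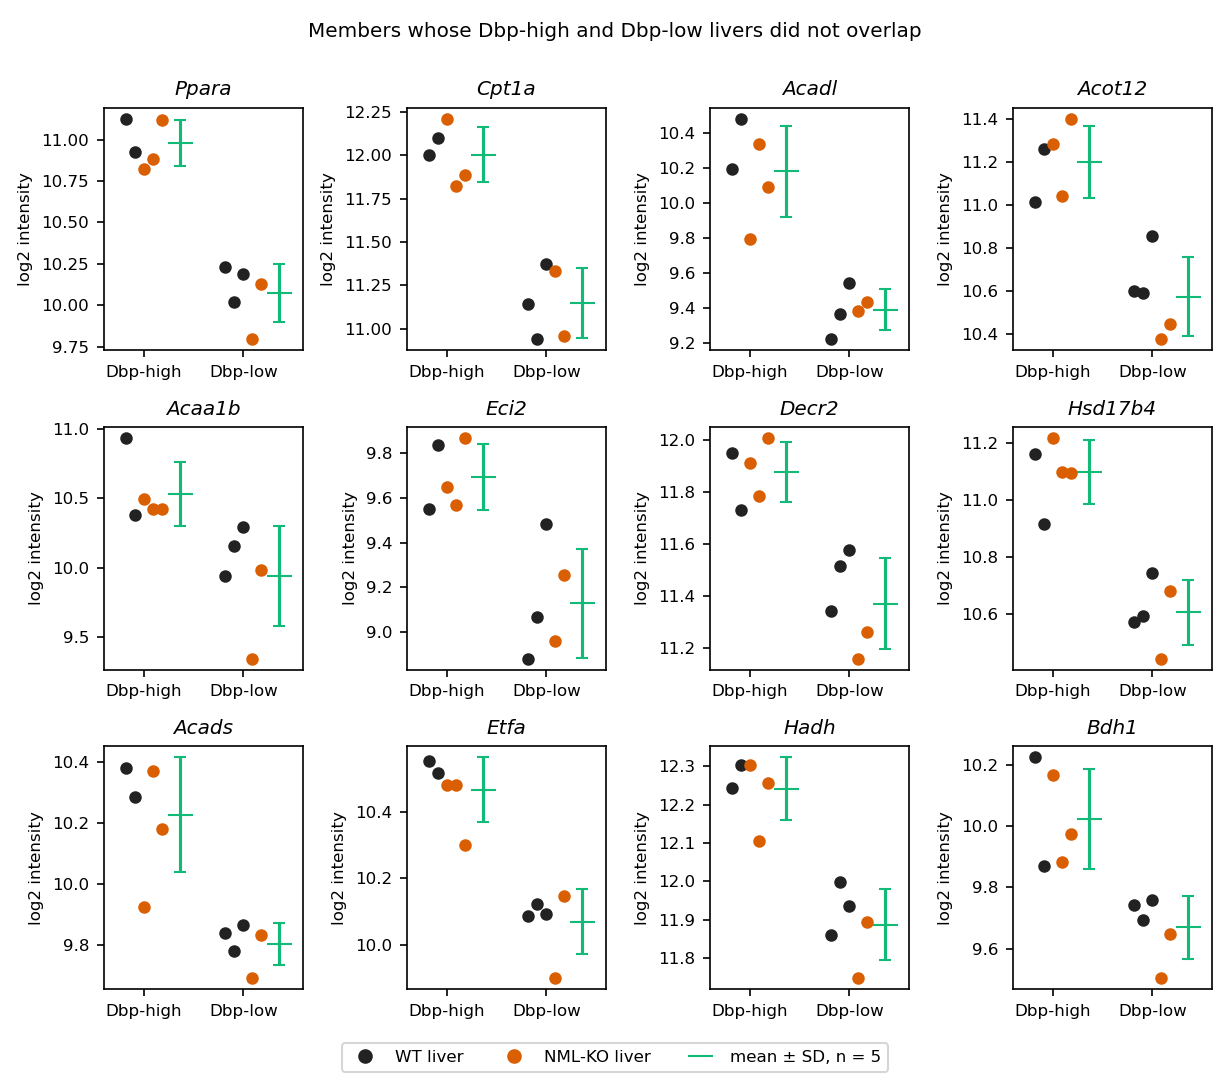
Log2 intensity of the 12 members with the largest differences among those whose sets of livers did not overlap, 1 panel per gene, with each point a liver (black WT, orange NML-KO) and the green mark the mean ± SD of the 5 livers. In each panel the lowest Dbp-high point lies above the highest Dbp-low point and both genotypes occur on each side; the vertical axes do not start at 0.

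At the first dehydrogenation step of the mitochondrial cycle 2 of 4 enzymes were separated. The acyl-CoA dehydrogenases Acadvl, Acadl, Acadm and Acads take very long, long, medium and short chains. Acadl was at 10.20 and 10.48 in WT 1 and WT 2 and 9.79, 10.33 and 10.09 in NML-KO 1 to 3, against 9.22, 9.36 and 9.54 in WT 3 to 5 and 9.38 and 9.43 in NML-KO 4 and NML-KO 5, a difference of 0.79 or 1.73-fold. Acads was at 10.38 and 10.28 in WT 1 and WT 2 and 9.93, 10.37 and 10.18 in NML-KO 1 to 3, against 9.84, 9.78 and 9.87 in WT 3 to 5 and 9.69 and 9.83 in NML-KO 4 and NML-KO 5, a difference of 0.43. Both were separated. Acadm was 0.26 higher with overlap, since WT 1 at 10.89 lay under WT 5 at 11.00 and WT 4 at 10.91, and the difference was 0.17 without WT 2. Acadvl differed by 0.13, also with overlap. The genotype differences of these 4 dehydrogenases lay between -0.06 and 0.05.

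At the later steps 2 of 6 genes were separated. Hadh, the 3-hydroxyacyl-CoA dehydrogenase of shorter chains, was at 12.24 and 12.30 in WT 1 and WT 2 and 12.30, 12.10 and 12.26 in NML-KO 1 to 3, against 11.86, 12.00 and 11.93 in WT 3 to 5 and 11.75 and 11.89 in NML-KO 4 and NML-KO 5, and so was separated by a difference of 0.35. Hadha, the alpha subunit of the trifunctional protein, was separated too, by a gap of 0.01 only. Its Dbp-high livers ran from 11.56 to 11.73 and its Dbp-low livers from 11.33 to 11.56, and with the arrays centred on their medians they overlapped. Hadhb, its partner across the shared promoter stretch, overlapped, with differences of 0.09 and 0.15 in its 2 probe sets. Whether Hadha and Hadhb differ from each other was not tested.

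Acaa2, the thiolase that ends the cycle, had a Dbp difference of -0.00, or -0.08 without NML-KO 4. It was at 12.82, 12.85, 12.93, 12.86 and 12.89 in WT 1 to 5 and at 12.81, 12.81, 12.83, 12.55 and 12.93 in NML-KO 1 to 5. NML-KO 4 stood 0.26 below the next lowest liver. The genotype difference was -0.08 (SE 0.07, limma unadjusted p = 0.247), and -0.02 without NML-KO 4. The auxiliary enzymes for unsaturated chains parted, Decr1 being 0.37 higher in the Dbp-high livers and Eci1 differing by -0.02 (-0.13 without NML-KO 4), both with overlap.

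Electrons from the dehydrogenases pass through the flavoprotein subunits Etfa and Etfb to Etfdh. The 2 subunits of the flavoprotein had differences of opposite sign, a contrast that was not tested. Etfa was at 10.55 and 10.52 in WT 1 and WT 2 and 10.48, 10.48 and 10.30 in NML-KO 1 to 3, against 10.09, 10.12 and 10.09 in WT 3 to 5 and 9.90 and 10.15 in NML-KO 4 and NML-KO 5, a difference of 0.40 with no overlap. Etfb was at 11.75 and 11.64 in WT 1 and WT 2, 11.56, 11.65 and 11.60 in NML-KO 1 to 3, 11.76, 11.86 and 11.78 in WT 3 to 5 and 11.74 and 11.81 in NML-KO 4 and NML-KO 5, a difference of -0.15 in which WT 1 and NML-KO 4 overlapped. After quantile normalization these differences were 0.51 and -0.01. Etfdh differed by 0.06 (0.02 without NML-KO 4), and the genotype differences of the 3 genes were -0.01, -0.09 (SE 0.06, limma unadjusted p = 0.198 for Etfb) and -0.03.

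Of the 7 peroxisomal members 4 were separated, with a median difference of 0.49 against 0.24 for the 10 mitochondrial members, a contrast that was not tested. Outside the set, 16 other peroxisomal oxidation genes had 0 separated upward, 3 separated downward, 8 higher, 8 lower and a median of -0.00. Over all genes 5.04% were separated upward and 7.12% downward. Of the 4197 genes with a mean from 8 to 14 these were 389 and 782, so the 3 downward are near the share at that level. Acaa1b, a peroxisomal thiolase, was at 10.93 and 10.38 in WT 1 and WT 2 and 10.49, 10.43 and 10.42 in NML-KO 1 to 3, against 9.94, 10.15 and 10.29 in WT 3 to 5 and 9.34 and 9.98 in NML-KO 4 and NML-KO 5. The difference was 0.59, and the highest Dbp-low liver, WT 5, came within 0.09 of the lowest Dbp-high liver. Acaa1b is nearly identical to Acaa1a, so that its probes may read both genes.

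Eci2, an isomerase that moves double bonds during oxidation of unsaturated chains, was at 9.55 and 9.84 in WT 1 and WT 2 and 9.65, 9.57 and 9.87 in NML-KO 1 to 3, against 8.88, 9.06 and 9.48 in WT 3 to 5 and 8.96 and 9.25 in NML-KO 4 and NML-KO 5, a difference of 0.57. Decr2, the peroxisomal dienoyl-CoA reductase, was at 11.95 and 11.73 in WT 1 and WT 2 and 11.91, 11.78 and 12.01 in NML-KO 1 to 3, against 11.34, 11.51 and 11.58 in WT 3 to 5 and 11.16 and 11.26 in NML-KO 4 and NML-KO 5, a difference of 0.51. Both genes were separated, and for Decr2 both NML-KO livers among the Dbp-low livers lay under the 3 WT livers. Hsd17b4, the D-bifunctional protein, was at 11.16 and 10.92 in WT 1 and WT 2 and 11.22, 11.10 and 11.09 in NML-KO 1 to 3, against 10.57, 10.59 and 10.74 in WT 3 to 5 and 10.44 and 10.68 in NML-KO 4 and NML-KO 5, a difference of 0.49.

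The other 3 peroxisomal members overlapped. Ehhadh, the L-bifunctional enzyme and a classical PPARA target, differed by 0.20, and its Dbp-high livers alone ran from 10.03 in WT 1 to 11.15 in WT 2. The difference was 0.07 without WT 2 and also 0.07 without NML-KO 4. Pex11a, which promotes peroxisome division, was 0.36 higher and lowest in NML-KO 4 at 9.20, without which it was 0.21 higher. Nudt7, a peroxisomal CoA diphosphatase, differed by -0.09, and WT 2 at 11.11 lay well below the other livers, which ran from 11.78 to 12.44. Without WT 2 the difference turned to 0.13.

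Acyl-CoA thioesterases release free fatty acid and CoA. Acot12, the cytosolic acetyl-CoA hydrolase of liver and a holder of the DR1-like stretch printed above, was at 11.01 and 11.26 in WT 1 and WT 2 and 11.28, 11.04 and 11.40 in NML-KO 1 to 3, against 10.60, 10.59 and 10.85 in WT 3 to 5 and 10.38 and 10.45 in NML-KO 4 and NML-KO 5. Its difference of 0.63, or 1.54-fold, was the fourth largest among the separated members. The neighbours Acot1, Acot3 and Acot4 on chromosome 12 overlapped, with differences of 0.06, 0.39 and 0.45. Acot3 and Acot4 were highest in WT 2, at 6.57 and 8.92, and differed by 0.25 and 0.29 without it. Acot1 turned to -0.02 without NML-KO 4. Acot1 and Acot3 averaged below the median of all genes, 6.22, and are close copies of other family members, so that their values are uncertain.

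Bdh1, which interconverts acetoacetate and 3-hydroxybutyrate, was the 1 ketone gene of the set. It was at 10.22 and 9.87 in WT 1 and WT 2 and 10.17, 9.88 and 9.97 in NML-KO 1 to 3, against 9.74, 9.70 and 9.76 in WT 3 to 5 and 9.50 and 9.65 in NML-KO 4 and NML-KO 5. These values were separated by a mean difference of 0.35, while the genotype difference was -0.02 (SE 0.14). Of the other ketone genes, Acat1, Bdh2 and Oxct1 overlapped and the monocarboxylate transporter Slc16a1 was lower in every Dbp-high than in any Dbp-low liver, with a difference of -0.63. Vnn1, a pantetheinase and PPARA target, averaged 0.68 higher in the Dbp-high livers, and its values overlapped, with Dbp-low livers running from 7.27 to 8.85.

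The difference between the Dbp sets was present in both genotypes for most members. It was positive in WT livers and in NML-KO livers alike for 23 of the 35 members (65.7%), against 39.8% of all genes; the 13 separated members are among the 23 by construction. The median was 0.25 in WT (2 against 3 livers) and 0.40 in NML-KO (3 against 2). Ppara differed by 0.88 in WT and 0.98 in NML-KO livers, and Acadl by 0.97 and 0.67. In the test of genotype by Dbp set in limma, 0 members had an adjusted p below 0.05 and 0 had an unadjusted p below 0.05, against 1293 genes (6.49%). The smallest was that of Decr2, with 0.36 in WT and 0.69 in NML-KO livers (limma unadjusted p = 0.0563, adjusted p = 0.765).

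**Figure D4:**
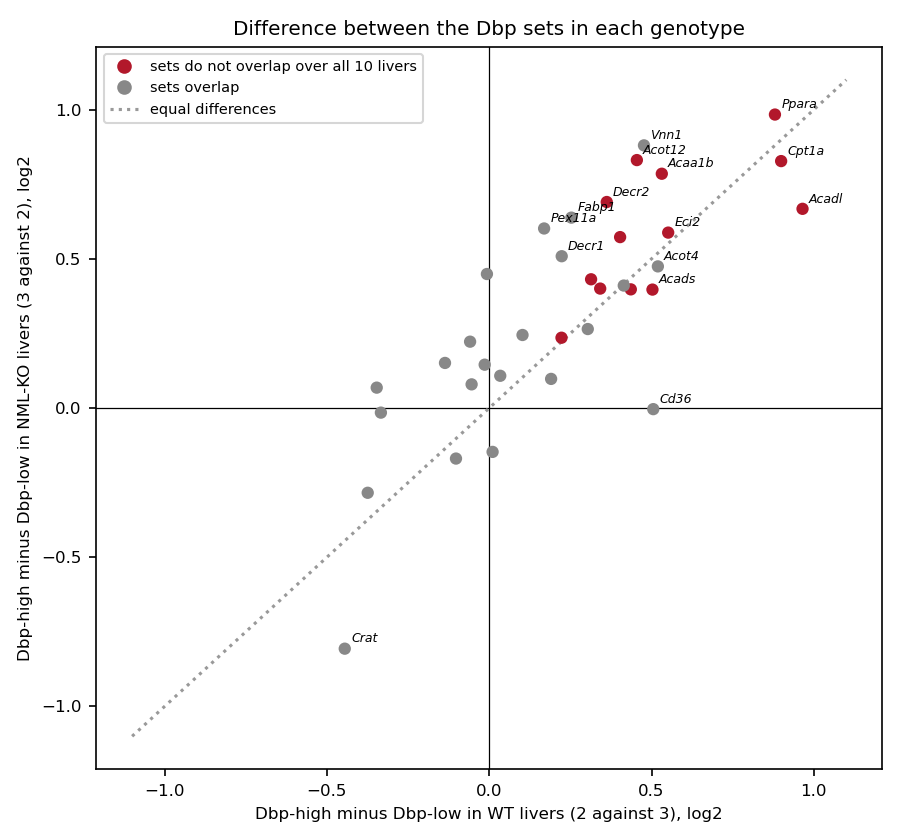
Dbp-high minus Dbp-low difference (log2) of each of the 35 members in WT livers (horizontal) and in NML-KO livers (vertical), with red points for members whose sets did not overlap over all 10 livers and a dotted line of equal differences. Red points are positive on both axes by construction. Ppara, Cpt1a and Acadl lie farthest to the upper right, and Crat is negative on both axes.

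With the Dbp set as a term in the genotype model, the median standard error of the members fell from 0.17 to 0.11. The median genotype difference of the members was then -0.09, against -0.01 over all genes. Then 1 of 35 members had an unadjusted p below 0.05, against 870 genes (4.36%). It was Acaa1b, with a difference of -0.34 (SE 0.15, limma unadjusted p = 0.0432, adjusted p = 0.992). Within the Dbp-high livers the NML-KO mean was lower for 20 of 35 members, with a median of -0.04, and within the Dbp-low livers for 32 of 35, with a median of -0.11. Of all 19935 genes 10723 were lower within the Dbp-high and 10565 within the Dbp-low livers. The 32 of 35 members rested on NML-KO 4. NML-KO 5 alone was lower than the mean of WT 3 to 5 for 17 of 35 members, with a median of 0.0029.

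NML-KO 4 stood low in many of the members. It had the lowest value of the 10 livers in 19 of 35 members (54.3%), against 11.6% of all genes, and the lowest of the 5 Dbp-low livers in 23 of 35 (65.7% against 25.5%). For the 45 other genes of the pathway described below, NML-KO 4 was the lowest of the 10 livers in 10 and the lowest Dbp-low liver in 20. Its members lay a median of 0.32 below their own means over all livers, with the peroxisomal genes at -0.46 and the electron transfer genes at -0.16. WT 5 was the highest Dbp-low liver for 22 members (62.9% against 16.7% of all genes). The Kupffer cell marker sum of NML-KO 4, 6098, was the highest of the 10 livers, and its part in the low values was not tested. Without NML-KO 4 the median Dbp difference of the members was 0.27.

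**Figure D5:**
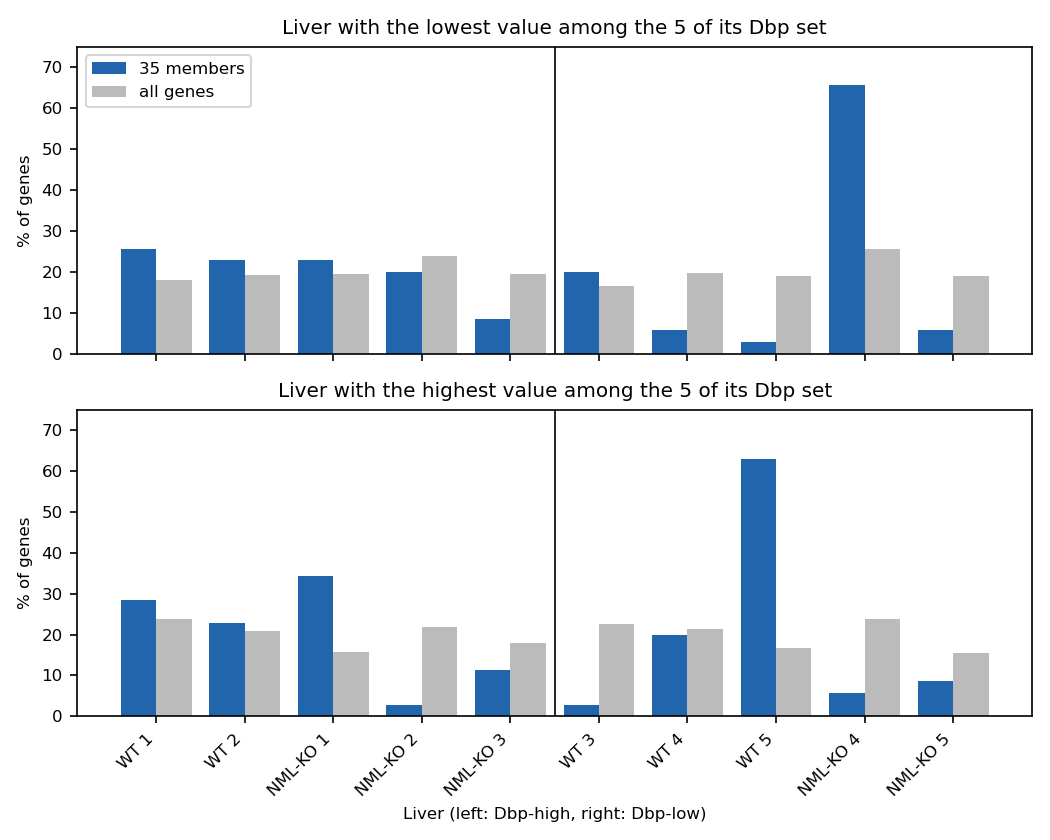
Share of the 35 members (blue) and of all genes (grey) for which each liver had the lowest (top) or highest (bottom) value among the 5 livers of its Dbp set. NML-KO 4 had the lowest value of its set in 65.7% of the members and WT 5 the highest in 62.9%, against 25.5% and 16.7% of all genes.

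Other genes of the pathway went both ways between the Dbp sets. Of 50 listed genes 45 were measured, 24 higher and 21 lower in the Dbp-high livers, with 5 separated upward (Lpin1, Sirt3, Ppargc1b, Acad11 and Acad10) and 5 downward (Hacl1, Slc16a1, Plin2, Acox2 and Pex19). Each 5 is 11.1% of the 45, against 5.04% of all genes upward and 7.12% downward. Of the 4197 genes with a mean from 8 to 14, 389 (9.27%) were separated upward and 782 downward. Against genes of that level these counts do not stand out. Lpin1, a phosphatidate phosphatase that also coactivates PPARA, differed by 2.14, with 9.82 to 11.17 in the Dbp-high and 8.12 to 8.49 in the Dbp-low livers. Nr1d1, a clock repressor, averaged 1.96 higher with overlap. Pdk4, the kinase that shuts pyruvate out of oxidation, had a difference of -2.01 with overlap, and Hacl1, the peroxisomal lyase of alpha-oxidation, was separated downward, with 10.05 to 10.87 in the Dbp-high and 11.18 to 11.67 in the Dbp-low livers. Among peroxisomal enzymes, Hacl1 and Acox2, the oxidase of branched chains, thus had the opposite sign to Acaa1b, Decr2, Eci2 and Hsd17b4. Between genotypes 0 of these 45 genes passed an adjusted p of 0.05, and 2 had an unadjusted p below it, as 2.7% of all genes did. They were Scp2, a sterol carrier and peroxisomal thiolase, at 0.30 (SE 0.10, limma unadjusted p = 0.0144, adjusted p = 0.999), and Acot8, a peroxisomal thioesterase, at -0.18 (SE 0.08, unadjusted p = 0.0488).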

How the data were processed

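Biotin-labelled liver RNA was hybridised to Affymetrix arrays, as the protocols in the labels state. Linear intensity values of 28815 probe sets on 10 arrays, from 18.4 to 29834, were deposited by the authors as 1 table. The submitters' processing notes name genome build mm8, and no background correction or normalization is given in the sources used here. Since any remaining background would shrink differences of dim genes, low values were read with care. The deposited intensities were taken to log2 with no filter. Only the 21780 probe sets with a single gene symbol were used, leaving out 1605 with several and 5430 that the platform table did not name. Symbols of 21689 probe sets were matched by gene ID to a RefSeq table (GRCm38.p6). Where a gene had several probe sets (998 genes), the one with the highest mean was kept, which left 19935 genes.

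Groups and replicate numbers came from the sample titles. Titles name separate livers, and p-values measure the spread between these livers. Genotypes were compared by limma 3.58.1 (lmFit, eBayes) in R 4.3.3 on all genes, and Rrp8 also by an exact permutation test. On simulated data for that comparison over 19935 genes, 17.8% of genes changed 1.2-fold, 67.2% changed 1.5-fold and 88.8% changed 2-fold were called. The simulated noise was normal and independent between genes, with the observed spread of each gene, and the added changes reached 4-fold. The Dbp split that many genes of these livers share was not simulated, so the called shares may not hold for the arrays. These shares are over all genes, whose median standard error in the arrays was 0.09, against 0.17 for the members. The share for the members alone was not tested. In the arrays Rrp8, at -0.88, was not called (limma adjusted p = 0.109).

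The members, the gene lists and the split by Dbp were chosen with earlier results of these data known. Every member may be named. Values of every liver are given for Ppara, Creb3l3, Cpt1a, Bdh1, the 5 members with the smallest genotype p, and up to 12 members with the largest separated Dbp differences. Other pathway genes are named by the 2 largest Dbp differences each way and the 2 smallest genotype p. Further genes, among them Fabp1, Arntl and the separated pathway genes, were named after their values were seen. The E-box and D-box searches were added after seeing the data.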

Additional observations from a re-analysis of the deposited data

Results flagged for a closer look

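Across 70 groups of 5 livers (35 members in each genotype), 2 held a liver whose gap to the next exceeded 0.710 of the range of the group, Dixon's critical value for 5 samples. Chance alone flags about 1 in 20 such groups. Pex11a in NML-KO 4 was at 9.20, against 9.97 to 10.28 in the other NML-KO livers. Nudt7 in WT 2 was at 11.11, against 12.01 to 12.29 in the other WT livers.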

How the results depend on the processing

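The comparisons were repeated with quantile normalization, median centring, dim genes left out, probe sets averaged, an offset of 16, a trended robust prior, array weights, a replicate block, the Dbp set or genotype as a term, within each set or genotype, and without each liver. Leaving out 1 liver at a time gave 0 to 1 genes past the genotype threshold, the 1 being Rrp8 without NML-KO 4 (-0.96, limma adjusted p = 0.0171), and Rrp8 ran from -0.96 to -0.82. Separated members numbered 13 to 16 when 1 liver was left out, which can only keep or add to the 13, and all genes rose from 5.04% to between 5.83% and 7.05%. Within NML-KO livers 21 members were separated upward and 3 downward, against 18.4% and 16.6% of all genes, and within WT livers 14 upward and 5 downward, against 21.6% and 18.3%. The median genotype difference of the members ran from -0.07 to 0.06 without 1 liver, 0.06 being without NML-KO 4, and was 0.12 without WT 2 and NML-KO 4, an alternative chosen after seeing the data. Of the 2 normalizations tried, which could undo a separation, quantile normalization kept all 13 and added 2 more, while median centring lost Hadha.

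Between livers of equal replicate number the correlation of deviations from the genotype mean ran from -0.42 to 0.54. It was -0.42 for replicate 3, whose 2 livers fall in different Dbp sets. For the other replicate numbers, whose livers share a Dbp set, it was 0.26 to 0.54. Since the Dbp sets enter these correlations, they cannot decide whether equal numbers pair the livers. With the replicate block 0 genes passed the threshold and 834 had an unadjusted p below 0.05, 1 of them a member, Crat (unadjusted p = 0.0150 by limma). Of 1912 values counted, 90 are those reported, 1798 kept their side of the threshold or moved by less than the replicate spread, and 24 did not. Rrp8 without NML-KO 4, which passed the threshold, is in none of these counts. Quantile normalization moved Hadha to 0.37, Hadh to 0.48 and Hsd17b4 to 0.61. Precision is limited by 5 arrays a group, and dim genes such as Acot1 and Acot3 could hide differences under background.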
